A study of Homo sapiens with 12 samples.

Results

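The genes described here were 9 members of the phosphoinositide 3-kinase (PI3K) and AKT pathway and the related kinase SGK1, measured by RNA-seq in LNCaP cells. They were INPP4B, PHLPP1, PHLPP2 and DDIT4, which act as brakes at different steps of the pathway, the kinases SGK1 and AKT1, and the PI3K subunits PIK3R1, PIK3R3 and PIK3CA. They were taken by symbol from a table of 34643 genes, in which all 9 were found, and all 9 were among the 15419 genes that passed the filter on low counts.

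LNCaP is an androgen-responsive line of human prostate cancer cells. The cells carried either a scramble control shRNA (shScramble) or an shRNA against TMEFF2 (shTMEFF2), a transmembrane protein of prostate cells, made from the U6 promoter of a lentiviral vector under puromycin selection. About 17 days after transduction, each line was kept in charcoal-stripped serum, which removes steroids, and then received 10 nM dihydrotestosterone, the potent natural androgen (DHT+), or ethanol vehicle (DHT-) for 24 hours. This gave 4 groups of 3 libraries. The comparisons asked how these genes responded to androgen in each line and whether the response differed with the shRNA. The 3 libraries of a group were separate treatments and RNA extractions drawn from 2 transductions, and the labels do not tie a library to a transduction or name which TMEFF2 shRNA was used, so p-values measure the spread between these libraries only.

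PI3K adds a phosphate to a membrane lipid, and the product recruits AKT and, through shared upstream kinases, activates SGK1. Lipid phosphatases such as INPP4B remove phosphates from these lipids, PHLPP phosphatases remove an activating phosphate from AKT, and DDIT4 restrains mTOR complex 1 further down. In prostate cancer cells androgen signalling and this pathway are known to restrain each other, and several of its genes are known to respond to steroid hormones.

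Each library held 19450866 to 22612046 estimated counts (median 21194622). TMEFF2 itself stood at 77.8, 73.8 and 103 CPM (the estimated count scaled to the effective size of the library) in the shScramble DHT- libraries and at 68.6, 39.3 and 81.7 CPM in shTMEFF2 DHT-. With DHT it stood at 173, 117 and 169 CPM in shScramble and at 142, 90.1 and 114 CPM in shTMEFF2. The libraries of both lines overlapped at each DHT level, and the lower means of shTMEFF2 did not pass the test (log2 fold change -0.43, SE 0.25, adjusted p = 0.503 without DHT, and -0.41, SE 0.25, adjusted p = 0.304 with DHT). Taken in the order listed, each shTMEFF2 library lay below its shScramble counterpart at both DHT levels, but the labels do not pair them. The mRNA level therefore gave only a weak check of the label, and the groups are named as labelled. The paper reports silencing of TMEFF2 protein in LNCaP cells by Western blot, with some but not all of its shRNAs. For the silencing it also cites a supplementary figure of TMEFF2 mRNA with and without DHT. Protein was not measured in these libraries. All 7 luminal prostate markers examined were counted in every library. Of 8 markers of other cell types, the basal keratin KRT5 was at 0 in all 12 libraries, while the collagen gene COL1A1 was counted at 11.9 to 30.4 CPM and PTPRC at 3.15 to 7.74 CPM.

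Promoter sequences are shown for the 4 genes whose DHT response differed between the lines, so that a reader can see the DNA around annotated starts of each gene. They are RefSeq windows on GRCh38.p14, each 300 bases long, from 250 bases before to 50 bases after a start site. The window nearest the start of the canonical transcript is given, and for SGK1 also a window at a start far downstream. The last of the 3 SGK1 windows, chr6:134174817-134175116, also far downstream, is not printed. Capitals mark each match, on either strand, to AGAACA, one arm of the sequence bound by steroid receptors, or to TATAAA, the core of the TATA box.
INPP4B, chr4:142846252-142846551, minus strand: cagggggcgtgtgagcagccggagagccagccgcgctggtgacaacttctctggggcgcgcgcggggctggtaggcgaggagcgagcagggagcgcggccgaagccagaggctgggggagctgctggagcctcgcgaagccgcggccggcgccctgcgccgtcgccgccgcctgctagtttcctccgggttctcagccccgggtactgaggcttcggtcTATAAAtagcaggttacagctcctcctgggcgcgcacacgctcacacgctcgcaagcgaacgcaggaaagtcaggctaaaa
SGK1, chr6:134318063-134318362, minus strand: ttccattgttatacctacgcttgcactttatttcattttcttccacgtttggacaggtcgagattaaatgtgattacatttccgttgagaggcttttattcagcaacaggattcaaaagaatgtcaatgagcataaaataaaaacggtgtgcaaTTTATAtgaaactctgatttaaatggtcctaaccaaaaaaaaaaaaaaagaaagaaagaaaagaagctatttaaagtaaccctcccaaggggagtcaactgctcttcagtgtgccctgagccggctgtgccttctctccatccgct
SGK1, downstream start, chr6:134177812-134178111, minus strand: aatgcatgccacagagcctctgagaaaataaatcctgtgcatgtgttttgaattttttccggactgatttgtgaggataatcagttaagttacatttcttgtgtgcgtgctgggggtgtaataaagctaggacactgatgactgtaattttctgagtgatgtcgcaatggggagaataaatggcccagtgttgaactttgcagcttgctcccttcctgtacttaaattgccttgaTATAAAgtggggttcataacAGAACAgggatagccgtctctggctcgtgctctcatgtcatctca
PIK3R1, chr5:68215506-68215805, plus strand: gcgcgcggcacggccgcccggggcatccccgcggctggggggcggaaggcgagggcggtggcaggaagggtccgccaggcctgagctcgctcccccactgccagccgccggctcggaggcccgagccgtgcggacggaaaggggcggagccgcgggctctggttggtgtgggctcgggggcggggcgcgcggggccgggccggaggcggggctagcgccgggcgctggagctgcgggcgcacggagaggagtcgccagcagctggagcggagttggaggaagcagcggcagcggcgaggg
PIK3R3, chr1:46132580-46132879, minus strand: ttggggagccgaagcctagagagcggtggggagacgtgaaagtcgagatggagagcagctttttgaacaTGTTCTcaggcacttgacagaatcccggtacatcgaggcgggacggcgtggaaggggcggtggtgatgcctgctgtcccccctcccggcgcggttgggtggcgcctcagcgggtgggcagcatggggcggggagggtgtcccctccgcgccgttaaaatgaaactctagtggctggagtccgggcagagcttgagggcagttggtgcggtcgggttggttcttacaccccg

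The INPP4B window held a TATAAA that began 31 bases before the start, and the downstream SGK1 window held one that began 15 bases before its start. The SGK1 window at the canonical start held its match, on the other strand, 96 bases before the start. The SGK1 window not printed held a match to TATAAA, on the other strand, 27 bases before its start, and no AGAACA. Among all windows of these genes, TATAAA was found in 3 of 3 for SGK1, 3 of 6 for INPP4B, 1 of 6 for PIK3R3 and 0 of 4 for PIK3R1, against 11.5% of 35116 windows of all genes. AGAACA was found in 1 of 3 windows of SGK1, 2 of 4 of PIK3R1, 3 of 6 of PIK3R3 and 0 of 6 of INPP4B, against 14.8% of all windows. Some windows of a gene overlap and share a match, the whole inverted repeat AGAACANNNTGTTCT was in none of the 25 windows of the 9 genes, and such matches describe letters, not bound sites. The counts are per gene and do not say which start was used.

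The level of each gene in each library is shown in the plot of CPM by group, and the genes are taken in turn by their role in the pathway.

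**Figure D1:**
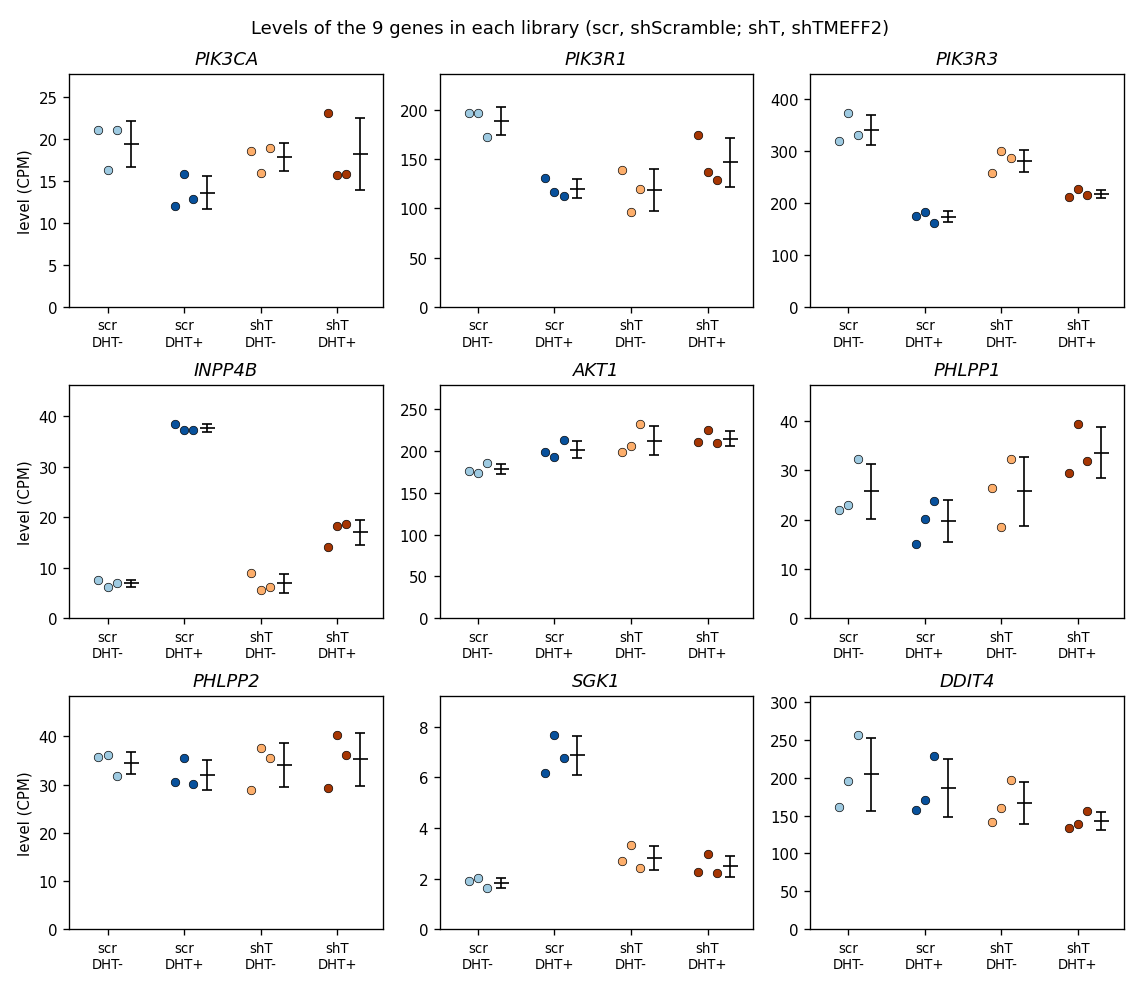
Levels of the 9 genes in CPM (vertical axis, from 0) in the 4 groups (horizontal axis; scr, shScramble; shT, shTMEFF2). Points are the 3 libraries of a group and the bars beside them give the mean and SD. INPP4B and SGK1 stand highest in shScramble DHT+, at 37.7 and 6.86 CPM, and PIK3R3 stands lowest there, at 173 CPM.

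In shScramble cells DHT raised the lipid phosphatase INPP4B 5.47-fold and the kinase SGK1 3.72-fold, and lowered the PI3K regulatory subunits PIK3R3 1.97-fold and PIK3R1 1.57-fold. A gene was called changed where its fold change reached 1.5 and its adjusted p did not exceed 0.05, by the quasi-likelihood test of edgeR, adjusted after Benjamini and Hochberg across the 15419 genes. By this rule 4 of the 9 genes changed with DHT in shScramble, where 11.9% of all genes tested did. In shTMEFF2 cells only INPP4B of the 9 was called, and 4.88% of all genes were. The groups of 3 did not overlap for 6 of the 9 genes in shScramble and for 2 in shTMEFF2, where 41.8% and 31.3% of all genes tested did not overlap. The median absolute log2 response of the 9 genes was 0.52 in shScramble and 0.22 in shTMEFF2, against 0.24 and 0.18 over all genes.

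INPP4B encodes a phosphatase that removes a phosphate from a phosphatidylinositol bisphosphate and so limits signalling to AKT. The gene is on chromosome 4, minus strand, at 142023160 to 142847432 (GENCODE on GRCh38), and its canonical transcript has 26 exons. In shScramble it stood at 7.51, 6.11 and 7.00 CPM without DHT and at 38.5, 37.2 and 37.3 CPM with DHT. Every DHT+ library thus lay far above every DHT- library, and the 3 DHT+ libraries lay close together. The log2 response was 2.45 (SE 0.17, adjusted p = 6.4e-07). In shTMEFF2 it stood at 8.99, 5.58 and 6.08 CPM without DHT and at 14.1, 18.2 and 18.6 CPM with DHT. These groups did not overlap either, and the response was 1.30 (SE 0.17, adjusted p = 0.00077), which is 2.47-fold. The responses differed between the lines: on the log2 scale that of shTMEFF2 was lower by a difference of -1.15 (SE 0.23, adjusted p = 0.0145).

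Without DHT the INPP4B level did not distinguish the lines, with means of 6.88 ± 0.707 CPM (SD, n = 3) in shScramble and 6.88 ± 1.84 CPM (SD, n = 3) in shTMEFF2. The 95% confidence interval of the difference reached from -0.38 to 0.37 on the log2 scale. With DHT the shTMEFF2 libraries, at a mean of 17.0 ± 2.51 CPM (SD, n = 3), all lay below the shScramble libraries, at 37.7 ± 0.737 CPM (SD, n = 3). This difference was 2.22-fold (log2 -1.15, SE 0.16, adjusted p = 0.00034). Its call for the difference between the responses was lost when only the first column of each library was used (adjusted p = 0.081).

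SGK1 encodes a kinase related to AKT that is known as an early target of glucocorticoids and mineralocorticoids. The gene is on chromosome 6, minus strand, at 134169248 to 134318112. In CPM it was the least abundant of the 9 genes, with 33 to 157 counts in a library. In shScramble it stood at 1.90, 2.00 and 1.62 CPM without DHT and at 6.16, 7.66 and 6.75 CPM with DHT. The groups were widely separated, and the log2 response was 1.90 (SE 0.20, adjusted p = 2.0e-05). SGK1 in shTMEFF2 stood at 2.69, 3.32 and 2.41 CPM without DHT and at 2.27, 2.97 and 2.23 CPM with DHT. Here the groups overlapped and the mean was slightly lower with DHT, with a log2 response of -0.18 (SE 0.20, adjusted p = 0.618). The 95% confidence interval of that response, 0.659- to 1.19-fold, lay below the whole interval in shScramble, 2.76- to 5.005-fold. The difference between the responses was -2.07 (SE 0.28, adjusted p = 0.00125), the largest among the 9 genes.

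For SGK1 the lines stood on opposite sides at the 2 DHT levels. Without DHT the 3 shTMEFF2 libraries lay above the 3 shScramble libraries, by 1.53-fold (log2 0.61, SE 0.20), but this did not pass the test (adjusted p = 0.193). Its size moved with the column used, to 0.22 with the first column of each library and 1.15 with the second, and the 2 columns of a library differed by up to 1.47 in log2 for SGK1. With DHT they all lay below, by 2.75-fold (log2 -1.46, SE 0.19, adjusted p = 0.00024). This call was lost when only the second column of each library was used (log2 -1.17, adjusted p = 0.072).

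**Figure D2:**
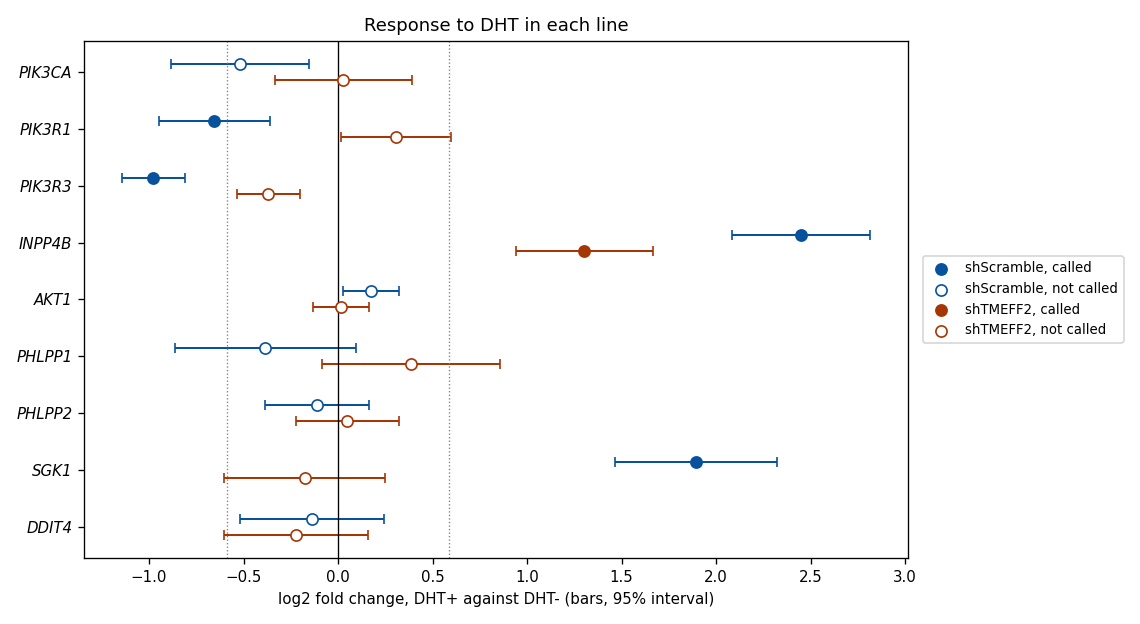
Response of the 9 genes to DHT in each line, as the log2 fold change of DHT+ against DHT- (horizontal axis) with its 95% confidence interval, from 3 libraries a group. Filled points passed both limits, and dotted lines mark 1.5-fold. SGK1 stands at 1.90 in shScramble and at -0.18 in shTMEFF2, PIK3R1 at -0.65 and 0.31.

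Of the PI3K subunits, both regulatory subunits fell with DHT in shScramble, and the catalytic subunit was not called. PIK3R1 encodes the p85-alpha family of regulatory subunits, which stabilise the catalytic subunit and hold it inactive until a receptor is engaged, and lies on the plus strand of chromosome 5, from 68215740 to 68301821. In shScramble it stood at 197, 196 and 172 CPM without DHT and at 131, 116 and 112 CPM with DHT. No DHT+ library reached the DHT- range, and the log2 response was -0.65 (SE 0.14, adjusted p = 0.0033). In shTMEFF2 the mean was higher with DHT, with 139, 96.6 and 119.6 CPM without DHT and 175, 137 and 128 CPM with DHT. These groups overlapped, and the response of 0.31 (SE 0.14) did not pass the test (adjusted p = 0.163). With the replicate number as a block in the edgeR model its adjusted p was 0.0480, under the fold limit. The responses differed by 0.96 on the log2 scale (SE 0.19, adjusted p = 0.0132).

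PIK3R1 was the single member called between the lines without DHT, where 0.571% of all genes were. The mean was 189 ± 14.1 CPM (SD, n = 3) in shScramble and 118 ± 21.3 CPM (SD, n = 3) in shTMEFF2, 1.59-fold lower, with no overlap (log2 -0.67, SE 0.14, adjusted p = 0.035). This call was fragile, since it was lost in 9 of 22 alternatives, among them the omission of any 1 of the 3 shScramble DHT- libraries (adjusted p = 0.126, 0.132 and 0.0589), of shTMEFF2 DHT- replicate 2 or 3 (adjusted p = 0.129 and 0.0713), and of replicate 2 of shScramble DHT+ or shTMEFF2 DHT+ (adjusted p = 0.0539 and 0.0552). With DHT the mean in shTMEFF2 was 147 ± 24.6 CPM (SD, n = 3), and the difference from shScramble did not pass the test (log2 0.29, adjusted p = 0.176).

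PIK3R3 encodes p55-gamma, a shorter regulatory subunit, and is on chromosome 1, minus strand, at 46040140 to 46133036. In shScramble it stood at 319, 374 and 331 CPM without DHT and at 175, 183 and 161 CPM with DHT. The groups did not overlap, and the log2 response was -0.98 (SE 0.08, adjusted p = 2.2e-06). The shTMEFF2 libraries stood at 257, 299 and 286 CPM without DHT and at 212, 226 and 215 CPM with DHT. These groups did not overlap either, and the response of -0.37 (SE 0.08, adjusted p = 0.0085) passed the adjusted p but was 1.29-fold, under the fold limit. The responses differed by 0.61 (SE 0.11, adjusted p = 0.0068). In part the exons of PIK3R3 are shared, on the same strand, with the readthrough gene P3R3URF-PIK3R3 (1292 bases), so its counts are uncertain to that extent.

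Between the lines PIK3R3 lay on opposite sides at the 2 DHT levels. It was lower in shTMEFF2 without DHT (log2 -0.28, SE 0.08, adjusted p = 0.112), with no overlap but short of the test, and higher with DHT (0.33, SE 0.08, adjusted p = 0.0114), again without overlap but at 1.26-fold.

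PIK3CA encodes the catalytic subunit p110-alpha, on the plus strand of chromosome 3, from 179148114 to 179240093. In shScramble it stood at 21.0, 16.3 and 21.0 CPM without DHT and at 12.1, 15.8 and 12.9 CPM with DHT. The groups just failed to overlap, and the log2 response of -0.52 (SE 0.17, adjusted p = 0.038) was 1.43-fold. It passed the fold limit without shScramble DHT- replicate 2 (-0.63) or shScramble DHT+ replicate 2 (-0.64). It no longer passed the adjusted p in 6 of 22 alternatives, with either column alone (adjusted p = 0.0941 and 0.0986) and without replicate 1 or 3 of shScramble DHT- (0.120 and 0.111) or of shScramble DHT+ (0.121 and 0.101). For shTMEFF2 the values were 18.6, 16.0 and 19.0 CPM without DHT and at 23.1, 15.7 and 15.8 CPM with DHT, overlapping groups with a response of 0.03 (SE 0.17, adjusted p = 0.937). The difference between the responses, 0.55 (SE 0.24), did not pass the test (adjusted p = 0.250), and its 95% confidence interval reached from 0.03 to 1.06. Its exons share 3403 bases with KCNMB3 on the opposite strand, and whether the reads keep strand is not given in the sources used here.

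The kinase AKT1 and its phosphatases PHLPP1 and PHLPP2 were called for DHT in neither line. AKT1, on chromosome 14 (minus strand) at 104769349 to 104795751, stood at 176, 174 and 186 CPM in shScramble without DHT and at 199, 193 and 213 CPM with DHT. Although these groups did not overlap, the response was 1.13-fold (log2 0.17, SE 0.07, adjusted p = 0.0775). Its adjusted p was 0.0473 with the replicate number as a block in the edgeR model and 0.0471 without shTMEFF2 DHT- replicate 3, under the fold limit. In shTMEFF2 it stood at 199, 206 and 233 CPM without DHT and at 211, 225 and 209 CPM with DHT, overlapping groups with a 95% confidence interval of 0.913- to 1.12-fold. Without DHT every shTMEFF2 library lay above every shScramble library, by 1.19-fold, which did not pass the test (log2 0.25, SE 0.07, adjusted p = 0.109). With DESeq2 in place of edgeR this difference had an adjusted p of 0.0214, under the fold limit. Over all 12 libraries AKT1 ranged from 174 to 233 CPM, the narrowest relative range of the 9 genes.

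PHLPP1, on the plus strand of chromosome 18 from 62715541 to 62980433, stood at 21.9, 23.0 and 32.3 CPM in shScramble without DHT and at 15.1, 20.2 and 23.8 CPM with DHT. The shTMEFF2 libraries stood at 26.5, 18.4 and 32.3 CPM without DHT and at 29.5, 39.5 and 31.9 CPM with DHT. The libraries of a group were widely spread and the DHT groups overlapped in both lines, with log2 responses of -0.38 (SE 0.22, adjusted p = 0.223) and 0.39 (SE 0.22, adjusted p = 0.280). The 2 responses had opposite signs, but their difference of 0.77 (SE 0.31) did not pass the test (adjusted p = 0.206). With DHT, however, all 3 shTMEFF2 libraries lay above the shScramble libraries, 1.71-fold on the fitted scale (log2 0.77, SE 0.22, adjusted p = 0.031). That call was lost without shScramble DHT+ replicate 1 or 2 (adjusted p = 0.116 and 0.0678), without shTMEFF2 DHT+ replicate 2 or 3 (adjusted p = 0.104 and 0.0525), and with the second column of each library alone (adjusted p = 0.163).

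PHLPP2, on chromosome 16 (minus strand) at 71637835 to 71724701, varied little. Its group means were 34.5 ± 2.33, 32.0 ± 3.05, 34.1 ± 4.56 and 35.3 ± 5.50 CPM (SD, n = 3) in shScramble DHT-, shScramble DHT+, shTMEFF2 DHT- and shTMEFF2 DHT+. The groups overlapped in each of the 4 comparisons. The 95% confidence intervals of its DHT responses were 0.766- to 1.12-fold in shScramble and 0.856- to 1.25-fold in shTMEFF2, so a change of 1.5-fold lay outside both.

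DDIT4, also called REDD1, is a short-lived inhibitor of mTOR complex 1 that is known to rise with hypoxia, stress and glucocorticoids. It lies on the plus strand of chromosome 10, from 72273919 to 72276036. In shScramble it stood at 161, 196 and 256 CPM without DHT and at 157, 171 and 229 CPM with DHT. DDIT4 in shTMEFF2 stood at 142, 160.0 and 197 CPM without DHT and at 133, 139 and 156 CPM with DHT. The groups overlapped in both lines, and neither response passed the test (log2 -0.14, SE 0.18, adjusted p = 0.610, and -0.22, SE 0.18, adjusted p = 0.469). With DHT every shTMEFF2 library lay below every shScramble library, by 1.30-fold, which did not pass the test either (log2 -0.38, SE 0.18, adjusted p = 0.173). With the replicate number as a block in the edgeR model this difference passed the adjusted p (log2 -0.36, SE 0.07, adjusted p = 0.0059), under the fold limit.

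Between the lines 3 of the 9 genes were called with DHT, INPP4B and SGK1 lower and PHLPP1 higher in shTMEFF2, where 6.77% of all genes were called. Groups without overlap were found for 5 of the 9 genes with DHT and 4 without, against 32.5% and 18.5% of all genes. For the difference between the responses, called on the adjusted p alone, 4 of the 9 genes passed, where 4.94% of all genes did. These were INPP4B and SGK1, whose response was lower in shTMEFF2, and PIK3R1 and PIK3R3, whose response was higher, that is less negative or positive. The 4 comparisons share their libraries and are not independent of one another.

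**Figure D3:**
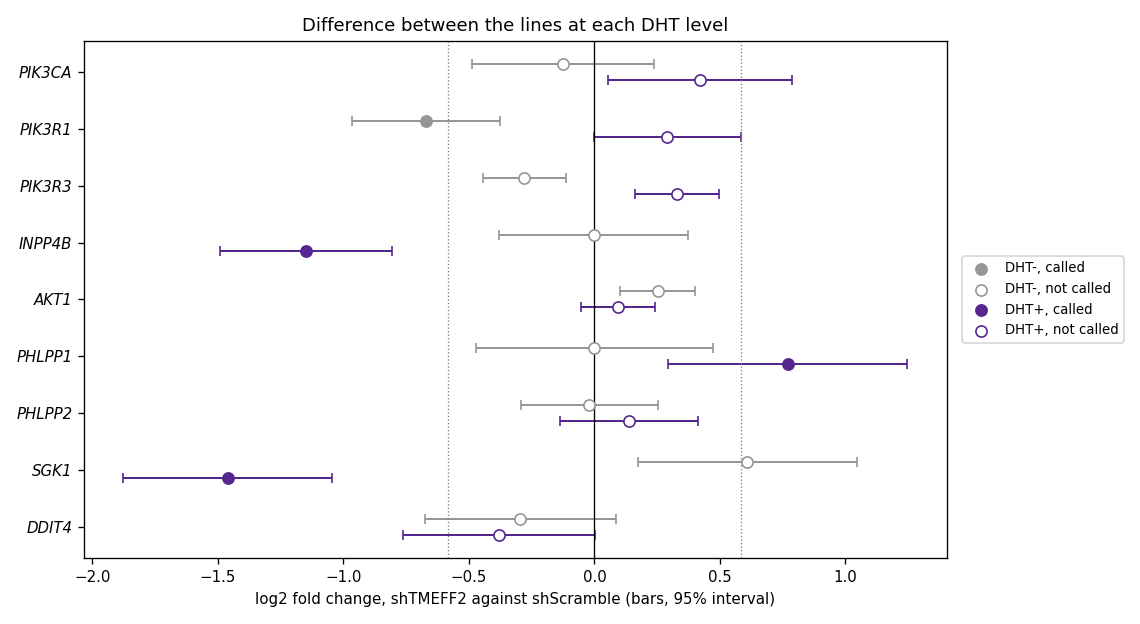
Difference between the lines for the 9 genes, as the log2 fold change of shTMEFF2 against shScramble (horizontal axis) with its 95% confidence interval, without DHT (grey) and with DHT (purple). Filled points passed both limits, and dotted lines mark 1.5-fold. With DHT, SGK1 stands at -1.46, INPP4B at -1.15 and PHLPP1 at 0.77.

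For a rough comparison of genes, levels were scaled per kilobase of the canonical transcript. Which transcript was expressed is not known from counts per gene, so close orders are uncertain. DDIT4 had the highest level in shScramble DHT-, at 117 CPM per kilobase. PIK3R3 and AKT1 followed at 60.9 and 60.4, with overlapping libraries, and PIK3R1 at 27.0. PHLPP2 and PHLPP1, at 4.15 and 4.08, could not be ordered, and PIK3CA stood at 2.10, INPP4B at 0.786 and SGK1 at 0.567 CPM per kilobase. With DHT in the same line INPP4B reached 4.31 CPM per kilobase, a level whose libraries overlapped those of PHLPP2 (3.85), and SGK1 reached 2.11, above PIK3CA (1.47) in every library. In shTMEFF2 with DHT, INPP4B at 1.94 CPM per kilobase overlapped PIK3CA at 1.97, and SGK1 was again the lowest, at 0.766.

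The genes whose levels ran most like those of the members over the 12 libraries were found among 11070 genes with a mean of at least 5 CPM, by Pearson's r of log2 CPM. The libraries share 4 groups, so a high r mainly restates the order of the groups. For INPP4B they were PLPP5 (r = 0.988), SORD (0.984) and PDIA5 (0.982), and for SGK1 MICAL1 (0.963), TMBIM1 (0.959) and SAT1 (0.958). For PIK3R3 they were TMEM144 (0.979), CDK8 (0.978) and COLCA2 (0.971), for PIK3R1 DOCK9 (0.938), BAMBI (0.923) and BBS10 (0.904), and for PHLPP1 UACA (0.922), CASP2 (0.899) and NADK2 (0.873). Among the members, INPP4B ran with SGK1 (r = 0.81) and against PIK3R3 (r = -0.94) over the same 12 libraries.

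A further 68 genes of the pathway were examined by role, of which 65 passed the filter. For DHT in shScramble 6 were called higher and 8 lower, where 11.9% of all genes tested were called, and in shTMEFF2 1 higher and 1 lower, where 4.88% were. For the difference between the responses 4 were called higher and 4 lower, where 4.94% of all genes were. Of the other class I PI3K subunits (4 of 6 tested) and the phosphoinositide phosphatases (8 of 8 tested), none was called in any comparison by edgeR or by DESeq2, although up to 3 and 5 of them had an unadjusted p under 0.05 in a comparison. For DHT in shScramble 2 of these subunits and 3 of these phosphatases passed the adjusted p, all lower and under 1.5-fold. The median log2 response of the phosphatases was -0.36 there, against -0.01 over all genes.

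Among AKT and its direct regulators, FKBP5, a scaffold known to bring PHLPP to AKT, had the largest response. It stood at 55.0, 64.3 and 71.1 CPM in shScramble without DHT and at 585, 744 and 653 CPM with DHT, a log2 response of 3.38 (SE 0.16, adjusted p = 4.9e-08). In shTMEFF2 it stood at 57.3, 58.6 and 66.1 CPM without DHT and 86.1, 114 and 136 CPM with DHT, a response of 0.89 (SE 0.15, adjusted p = 0.0030). The responses differed by -2.50 (SE 0.21, adjusted p = 8.4e-05). PIK3IP1, a membrane inhibitor of PI3K, fell in both lines (log2 -1.0001, SE 0.09, adjusted p = 4.8e-06 in shScramble, and -0.68, SE 0.09, adjusted p = 0.00076 in shTMEFF2), and PPP2R2A, a subunit of the phosphatase that acts on AKT, fell in shScramble (-0.82, SE 0.11, adjusted p = 0.00016). AKT2 was called in no comparison, with a response of 0.03 (SE 0.07) in shScramble.

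Of the 5 SGK kinases and substrates, 2 rose with DHT in shScramble, where 11.9% of all genes were called in either direction, and none was called in shTMEFF2, where 0 had an unadjusted p under 0.05 and DESeq2 called 0. NDRG1 encodes a substrate of SGK1, and its mRNA level is not a measure of SGK1 activity. NDRG1 mRNA stood at 72.0, 78.2 and 149.8 CPM in shScramble without DHT and at 336, 299.97 and 339.9 CPM with DHT (log2 response 1.70, SE 0.22, adjusted p = 0.00010). In shTMEFF2 its response was 0.22 (SE 0.22, adjusted p = 0.562), and the responses differed by -1.48 (SE 0.31, adjusted p = 0.0159). SGK3, a relative of SGK1 on endosomes, rose in shScramble (0.69, SE 0.11, adjusted p = 0.00063), and its difference between the lines (-0.65, SE 0.16, adjusted p = 0.036) was lost in 10 of 21 alternatives, among them the omission of replicate 1 or 3 of shScramble DHT- (adjusted p = 0.0799 and 0.0926), 1 or 2 of shScramble DHT+ (0.0798 and 0.0812), 1 or 2 of shTMEFF2 DHT- (0.0748 and 0.0889) and 1 or 3 of shTMEFF2 DHT+ (0.0884 and 0.0849).

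In the mTOR list 5 of 23 genes were called for DHT in shScramble, MTOR higher (0.99, SE 0.06, adjusted p = 3.4e-07) and 4 lower, where 11.9% of all genes were called. In shTMEFF2 0 were called by edgeR and 0 by DESeq2, although 5 passed the adjusted p, 3 higher and 2 lower, under the fold limit, and 6 had an unadjusted p under 0.05. The lower ones included the sestrins SESN3 (-1.62, SE 0.09), SESN1 (-1.43, SE 0.16) and SESN2 (-0.72, SE 0.09), inhibitors of mTOR complex 1 (adjusted p = 1.4e-07, 3.9e-05 and 5.6e-05). In shTMEFF2 their responses were -0.50 (adjusted p = 0.0036), -0.38 (0.145) and -0.31 (0.033). The response of MTOR in shTMEFF2 was 0.41 (adjusted p = 0.0017). The difference between the responses passed by edgeR for MTOR (-0.57, adjusted p = 0.0029), SESN3 (1.12, adjusted p = 0.00039) and SESN1 (1.05, adjusted p = 0.0186), and not for SESN2 (0.42, adjusted p = 0.0702), which DESeq2 called. Of 13 FOXO factors and targets tested, CCNG2 (-1.02, SE 0.11, adjusted p = 2.3e-05), TXNIP (-0.67, SE 0.23, adjusted p = 0.047) and IRS2 (0.81, SE 0.25, adjusted p = 0.027) were called for DHT in shScramble, where 11.9% of all genes were called. DESeq2 called CCNG2 and IRS2 but not TXNIP. The TXNIP call was lost in 10 of 22 alternatives, among them the omission of shScramble DHT- replicate 1 or 3 (adjusted p = 0.0963 and 0.175), shScramble DHT+ replicate 1 or 2 (0.114 and 0.170), or replicate 1 of shTMEFF2 DHT- or DHT+ (0.0602 and 0.0574). The IRS2 call was lost in 4 of 21, among them without shScramble DHT- replicate 1 or 3 (adjusted p = 0.101 and 0.0619) or shScramble DHT+ replicate 2 (0.0908).

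**Figure D4:**
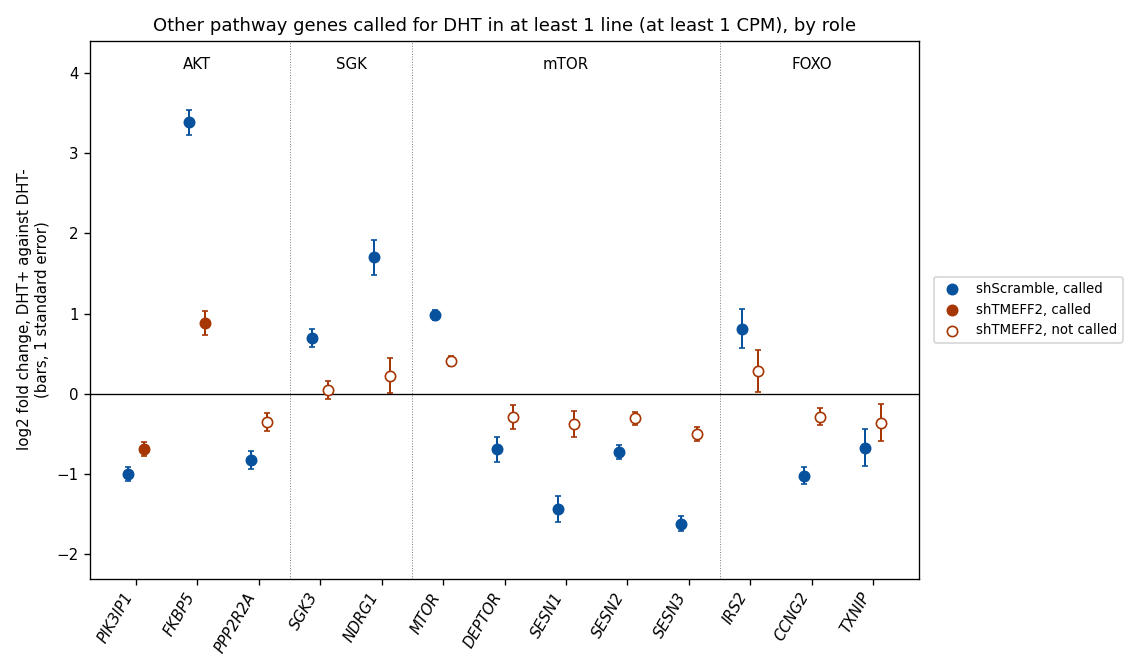
Response to DHT of 13 other pathway genes called in at least 1 line and at 1 CPM or more in every library, by role, as the log2 fold change of DHT+ against DHT- (vertical axis) with 1 standard error. Filled points passed both limits. FKBP5 reaches 3.38 in shScramble and 0.89 in shTMEFF2, and SESN3 falls to -1.62 and -0.50.

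Between the lines without DHT, 0 of the 65 other pathway genes were called by edgeR, where 0.571% of all genes were. Of the 65, 16 had an unadjusted p under 0.05, and DESeq2 called 1, SESN1. With DHT 6 of the 65 were called, where 6.77% of all genes were. Of these, 1 was higher in shTMEFF2, SESN3 (0.86, SE 0.09, adjusted p = 3.7e-05), and 5 were lower, among them FKBP5 (-2.56, SE 0.15, adjusted p = 9.0e-07), NDRG1 (-2.17, SE 0.22, adjusted p = 3.8e-05), MTOR (-0.89, SE 0.06, adjusted p = 2.5e-06) and IRS2 (-1.09, SE 0.25, adjusted p = 0.0100). The IRS2 call was lost with the second column of each library alone (adjusted p = 0.0598).

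Steroid-induced genes were read beside SGK1, since that gene is also known as a glucocorticoid target. Of 8 genes known to be induced by both androgens and glucocorticoids, 3 rose with DHT in shScramble, ERRFI1 (1.43, SE 0.10, adjusted p = 6.2e-07), ZBTB16 (0.98, SE 0.10, adjusted p = 1.9e-05) and PER1 (0.89, SE 0.23, adjusted p = 0.0120), where 11.9% of all genes were called in either direction. The same 3 were called lower in shTMEFF2 than in shScramble with DHT, where 6.77% of all genes were called in either direction. The difference between the responses passed by edgeR for ERRFI1 alone of the 8 (-1.28, SE 0.14, adjusted p = 0.00034), where 4.94% of all genes passed. DESeq2 called 3 of the 8 for this difference, ERRFI1, NFKBIA and ZBTB16. KLF9 passed the adjusted p as lower in both lines, under the fold limit (-0.31, adjusted p = 0.0044, and -0.35, adjusted p = 0.0060). None of the 8 was called for DHT in shTMEFF2, where 2 passed the adjusted p, KLF9 and ZBTB16 (0.47, adjusted p = 0.0111), 3 had an unadjusted p under 0.05 and DESeq2 called 0. KLF9 was named after its values were seen.

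The summed level of the 7 luminal markers was highest in shScramble DHT+, as were INPP4B and SGK1. It was 4299 to 4491 CPM in shScramble DHT-, 11255 to 11985 CPM in shScramble DHT+, 2523 to 2780 CPM in shTMEFF2 DHT- and 3628 to 4762 CPM in shTMEFF2 DHT+. The summed level of the 8 markers of other cell types was 27.1 to 28.4, 19.5 to 21.8, 30.4 to 42.8 and 22.2 to 27.2 CPM in the same order. Their part in the results was not tested, and in bulk RNA a change in the share of cells and a change in the RNA of each cell cannot be told apart.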

How the data were processed

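RNA was extracted from the 12 LNCaP cultures and sequenced as paired reads. Per the methods and the labels, the authors checked reads with FastQC, trimmed them with Trimmomatic, quantified them with kallisto 0.42.3 on the GRCh38 transcriptome, and deposited estimated counts per gene with a scaling for transcript length and library size, so a switch between long and short transcripts need not alter a gene's count. Whether strand was kept is not given in the sources used here. The table holds 24 columns, 2 for each library. These differ only by a suffix and were closer to each other (median chi-square 2.48 to 2.77 times its expectation) than 2 replicates of a group (4.07 to 5.04 times), so they were summed into 1 replicate.

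The sums were rounded to whole numbers. One edgeR 4.0.16 model (R 4.3.3) held all 12 libraries and a coefficient for each group, after TMM scaling (factors 0.955 to 1.037) and the filterByExpr filter at a minimum count of 10 and a total of 15. P-values came from its quasi-likelihood test, adjusted after Benjamini and Hochberg across 15419 genes, and the limits of 1.5-fold and 0.05 are those of the study. CPM are TMM-normalized, and r used log2 CPM with a prior count of 2. The common biological coefficient of variation was 0.131. The fits were first tested on counts simulated with set fold changes. The 9 genes, the lists and the tests were chosen with earlier results of these data known. From each list at most 4 called genes with the largest changes are named, with FKBP5, NDRG1 and AKT2 named whatever their values, and for each member called between groups the 3 genes with the highest r. A few genes covered by this rule are not reported here.

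Results were recomputed with DESeq2 1.42.0, with genes over a mean of 5 CPM, with no filter, library size only, DESeq2 size factors, limma-voom (limma 3.58.1) on unrounded counts, the replicate number as a block, 1 of the 2 columns of each library, only the 6 libraries compared, and each library left out in turn. Positions are from GENCODE on GRCh38, and promoters from RefSeq on GRCh38.p14.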

Additional observations from a re-analysis of the deposited data

Results flagged for a closer look

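The DHT responses of 4 of the 9 genes differed between the lines by the test of the difference itself (edgeR, adjusted p of 0.00125 to 0.0145). As the log2 response in shTMEFF2 minus that in shScramble, the difference was -2.07 for SGK1, -1.15 for INPP4B, 0.96 for PIK3R1 and 0.61 for PIK3R3. For SGK1 and PIK3R1 only the response of shScramble passed the test, for INPP4B both responses were called, and for PIK3R3 both passed the adjusted p. Groups of 3 libraries are too small for a test of single outlying libraries.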

How the results depend on the processing

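Of 45 results of the 9 genes, 31 kept direction and call under every alternative, a call needing both limits where groups were compared, 4 lost a call in at least 1, 1 gained one, and 9 changed sign in at least 1, none of them called. The log2 change of PIK3CA for DHT in shScramble was called with library size only (-0.59). Changes of sign in the DHT response of shTMEFF2 were PHLPP2 -0.0499 with the second column, and PIK3CA -0.18 and AKT1 -0.00224 with the first column. Between the lines without DHT they were INPP4B 0.000923 with the 5 CPM filter, 0.0257 with the first column and 2.7e-05 with the 6 libraries alone, PIK3CA 0.23 with the first column, and PHLPP1 -0.00221 with DESeq2, -0.0113 with library size only, -0.00241 with DESeq2 size factors, -0.0182 with limma-voom, and -0.00703 and -0.00304 with the first and second column. With 1 library left out the ranges that crossed 0 were, for DHT in shTMEFF2, AKT1 -0.0289 to 0.0950, PHLPP2 -0.0534 to 0.17 and PIK3CA -0.18 to 0.14, between the lines without DHT, INPP4B -0.24 to 0.13, PHLPP1 -0.19 to 0.20 and PHLPP2 -0.1000 to 0.0841, and for DDIT4 -0.32 to 0.0620 for DHT in shScramble and -0.27 to 0.0954 for the difference between the responses.

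Counts of calls moved as follows, and the cause was not tested. Between the lines without DHT, members called fell from 1 to 0 with the first column, with the 6 libraries alone and in some fits with 1 library left out (0 to 1), the other pathway genes rose from 0 to 1 with DESeq2, and all genes moved from 88 to 180 with DESeq2, 157 without a filter, 46 and 50 with the first and second column, 46 with the 6 libraries alone, and 32 to 117 with 1 library left out, the lowest without shScramble DHT- replicate 1. Members called between the lines with DHT fell from 3 to 1 with the second column. For DHT in shTMEFF2 the other pathway genes called fell from 2 to 1 with the first column, and all genes ranged from 466, without shTMEFF2 DHT+ replicate 3, to 902 (753 with all libraries). For the difference between the responses all genes moved from 761 to 1199 with DESeq2, 494 with the second column, and 465, without shScramble DHT- replicate 2, to 765. With library size only, the share of higher calls went from 44.7% to 57.0% between the lines with DHT and from 33.4% to 48.2% for the difference between the responses.

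Samples with the same replicate number deviated together weakly (r = -0.002 to 0.17, over 0.1 in 3 of 18 pairs), yet 12 of 12 libraries correlated best with their own number. The number therefore carries a shared deviation, which the main fit leaves in its spread. The labels do not say what a number stands for, so it entered only the alternative fit with a block. With the replicate block the genes called between the lines without DHT rose from 88 to 144, and no member gained or lost a call. DDIT4, highest in replicate 3 of every group, differed between the lines with DHT by -0.36 (adjusted p = 0.0059 under the block), under the fold limit. SGK1 has 33 to 157 counts in a library, which limits its precision, and its mean is below the 5 CPM filter, so it has no value there.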
